A study of Mus musculus with 18 samples.

Results

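The genes described here are the nuclear genes for mitochondrial ribosomal proteins, followed through the first 72 h of a myocardial infarction (MI) in the mouse. They were chosen by name: every gene in the count table whose mouse symbol is Mrpl or Mrps followed by a number, with at most 1 further letter, and whose mean count over the 18 libraries was at least 20. This gave 77 of 30583 genes. All 77 genes that matched by name passed the minimum, and none of them is near it: the lowest mean was 202 counts and the lowest single value was 130 counts. By textbook assignment 50 encode proteins of the large subunit, among them Mrps18a and Mrps30, and 26 encode proteins of the small subunit. The remaining one, Mrps36, carries a ribosomal name but is now known as a subunit of the 2-oxoglutarate dehydrogenase complex. The 77 genes lie on 17 chromosomes.

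The RNA came from 12-week-old male C57BL/6JR mice in 6 groups of 3, 1 library per mouse. Sham mice (0 h) had the suture passed around the left anterior descending coronary artery without tying it. In the other 5 groups the artery was tied and tissue was taken after 10 min or after 1, 6, 24 or 72 h. No transgene is described, every mouse was anaesthetised with sodium pentobarbital and later isoflurane, and no operation-free group was analysed here. The labels name infarcted left ventricular tissue as the source and cardiomyocytes as the cell type. No separation of cells is described, and genes of fibroblasts, macrophages, neutrophils and endothelial cells were all measured, so the libraries are read as whole tissue.

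Mitochondria keep their own ribosome, which translates only the few proteins encoded by mitochondrial DNA, all of them core subunits of the respiratory chain and ATP synthase. Its 2 rRNAs are made inside the organelle, whereas each of its proteins is encoded in the nucleus, made in the cytosol and imported. Some of these proteins descend from bacterial ribosomal proteins and others exist only in mitochondria. Heart muscle is dense in mitochondria, and inherited defects of several of these proteins, MRPL3 and MRPL44 among them, cause cardiomyopathy. In tissue RNA, fewer cells of a type and less RNA per cell cannot be told apart.

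The start regions are shown first because many of these genes start close to a neighbour that is read in the other direction. Some of these neighbours rose after infarction and others fell, with counts given further below beside the shares of all genes. Of 77 members, 33 (42.9%) had a protein-coding gene on the opposite strand whose start lay within 1000 bases of their own in GENCODE M21, against 14.7% of the 13911 other protein-coding genes tested. The neighbour's start lay upstream in 18 of them, and in 15 it lay downstream, so that the 2 genes overlap at their heads. The 5 windows below, from RefSeq on build GRCm38.p6, run from 250 bases before to 50 bases after the start and are written 5′ to 3′ on the gene's strand, which is the plus strand in each case. Capitals mark matches on either strand to 3 motifs: GCGC, any base, then TGCGC for the factor NRF1, CCGGAAG for the ETS family to which GABP belongs, and AANATGGCG for YY1. All 3 factors are known regulators of nuclear genes for mitochondria. These windows were chosen after their values were seen. Mrpl52 (chr14:54426659-54426958) is shown as the member that was highest relative to sham at 72 h, with ETS matches at 47 bases before and 2 bases after the start. Mrpl30 (chr1:37890227-37890526), Mrpl57 (chr14:57825989-57826288) and Mrpl27 (chr11:94653541-94653840) are shown with a neighbour that rose at 72 h, and Mrps27 (chr13:99344536-99344835) with a mitochondrial neighbour that fell. By RefSeq's starts these 4 windows hold the start of the neighbour on the other strand: that of Mitd1 lies 66 bases before Mrpl30, that of Ska3 76 bases before Mrpl57, that of Eme1 48 bases before Mrpl27 and that of Ptcd2 108 bases before Mrps27. RefSeq and GENCODE starts differ for some genes, so the distances in the 2 annotations differ as well.
Mrpl52: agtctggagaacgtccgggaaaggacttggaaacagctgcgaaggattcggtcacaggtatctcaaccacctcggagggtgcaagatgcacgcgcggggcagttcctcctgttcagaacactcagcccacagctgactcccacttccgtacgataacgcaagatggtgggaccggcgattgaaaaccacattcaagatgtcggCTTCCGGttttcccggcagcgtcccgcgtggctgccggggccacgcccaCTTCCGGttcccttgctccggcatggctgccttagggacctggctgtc
Mrpl30: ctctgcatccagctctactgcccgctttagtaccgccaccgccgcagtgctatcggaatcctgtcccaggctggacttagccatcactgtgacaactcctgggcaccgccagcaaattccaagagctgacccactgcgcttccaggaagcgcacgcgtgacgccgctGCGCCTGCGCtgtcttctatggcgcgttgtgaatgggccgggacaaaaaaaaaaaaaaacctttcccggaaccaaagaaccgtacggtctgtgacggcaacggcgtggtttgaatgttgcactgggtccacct
Mrpl57: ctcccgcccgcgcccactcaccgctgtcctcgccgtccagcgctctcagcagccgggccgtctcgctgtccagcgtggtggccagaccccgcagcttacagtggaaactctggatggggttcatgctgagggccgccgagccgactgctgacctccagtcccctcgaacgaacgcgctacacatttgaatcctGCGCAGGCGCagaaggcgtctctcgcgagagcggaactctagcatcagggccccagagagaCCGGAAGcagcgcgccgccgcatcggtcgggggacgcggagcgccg
Mrpl27: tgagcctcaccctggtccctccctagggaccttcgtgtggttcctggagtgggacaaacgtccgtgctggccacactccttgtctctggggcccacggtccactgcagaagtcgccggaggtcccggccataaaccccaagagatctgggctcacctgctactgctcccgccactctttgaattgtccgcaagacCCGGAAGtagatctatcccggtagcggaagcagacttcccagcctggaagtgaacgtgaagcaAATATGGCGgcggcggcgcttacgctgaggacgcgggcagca
Mrps27: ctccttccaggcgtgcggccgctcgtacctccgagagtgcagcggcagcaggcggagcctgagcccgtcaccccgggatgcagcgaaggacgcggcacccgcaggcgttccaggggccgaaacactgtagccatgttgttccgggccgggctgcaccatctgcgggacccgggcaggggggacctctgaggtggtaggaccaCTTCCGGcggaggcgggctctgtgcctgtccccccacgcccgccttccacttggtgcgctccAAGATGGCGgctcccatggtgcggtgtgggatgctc

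A window was found for 68 of the 77 members; the other 9 are Mrpl4, Mrpl13, Mrpl15, Mrpl19, Mrpl38, Mrpl54, Mrps28, Mrps34 and Mrps35. At least 1 of the 3 motifs was present in 41 of the 68 (60.3%), against 29.7% of the 11595 tested genes with a window and 15.9% of all 27025 genes with one. The NRF1 motif was found in 13 members (19.1%, against 10.4% of tested genes), the ETS motif in 25 (36.8%, against 18.3%) and the YY1 motif in 11 (16.2%, against 5.30%). The other motifs searched were not more frequent in members: CCAAT was found in 38.2% of members and 42.1% of tested genes, CACGTG in 7.35% and 11.3%, and TATAAA in 7.35% and 9.30%. Each motif was counted on its own, so that a window may count under several, and a match is a run of letters, not a measured binding site. Members with an NRF1 match had a median log2 fold change at 72 h of −0.998 and those without one −0.82, while for the ETS motif the order was the other way round (−0.73 with and −0.93 without). These medians are descriptions of 68 genes with no test.

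Libraries held 18.2 to 25.1 M counts (M is mega), and levels are given as CPM, counts per M counts after scaling between libraries by TMM (trimmed mean of M-values, which assumes that most genes do not change). A gene was called when its adjusted p, from edgeR's quasi-likelihood test with Benjamini-Hochberg adjustment over 16311 genes, was under 0.05. All p-values below are of this kind unless another tool is named, and with 3 mice per group they rest on the spread between these 18 libraries. Mitochondrially encoded genes took 22.3% to 27.4% of the counts in the sham, 10 min and 1 h libraries and 8.41% to 10.5% at 72 h. Of the 24 h libraries, replicate 3 stands apart: its members sum to 3349.5 CPM, against 4309 and 4269 CPM in the other two, its cardiomyocyte markers to 32334 CPM, against 50402 and 48277 CPM, and its neutrophil markers to 903 CPM, against 280 and 101 CPM. Replicate 1 at 6 h held 172 CPM of 4 atrial markers, against at most 3.41 CPM in any other library. Its members summed to 4399 CPM, against 5093 and 5120 CPM in 6 h replicates 2 and 3. Its neutrophil markers summed to 932 CPM, against 433 and 271 CPM.

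In sham hearts the members spanned a wide range per length of transcript. On the authors' FPKM scale (fragments per kilobase of exon, scaled to the library), Mrps21 was highest at 158 ± 5.67 (SD, n = 3), followed by Mrpl34 at 130.1 ± 10.3 and Mrps23 at 108 ± 4.29. Lowest were Mrps30 at 2.61 ± 0.294, Mrps10 at 3.17 ± 0.125, Mrps22 at 4.08 ± 0.488 and Mrps18b at 4.65 ± 0.937. The ranges of neighbours in this order overlapped for Mrps22 and Mrps18b, while Mrps21 stood above Mrpl34 by more than their SDs together. The lengths count every annotated exon, so a gene with long alternative ends, such as Mrps10 with 8079 exon bases, is placed low for its coding part. Proteins of 1 particle are thus encoded by mRNAs whose measured levels differed widely before any ligation. Of these, Mrpl34, Mrps23 and Mrps30 were named after their values were seen.

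The first hour brought no call in any member. At 10 min, 0 of 77 members were called in either direction, where 0.0736% of all genes tested were called either way; 1 member had an unadjusted p under 0.05, and DESeq2 and limma also called 0. The median log2 fold change was −0.03. At 1 h, 0 were called in either direction, against 0.294% of all genes, and 2 had an unadjusted p under 0.05. DESeq2 and limma called 0 there as well. The median was −0.07, 68 of 77 members were below 0, and in 24 members all 3 libraries lay below all 3 sham libraries, an arrangement seen in 8.66% of all genes tested. The summed level of the 77 members was 5155 ± 126 CPM in sham, 5002 ± 364 CPM at 10 min and 4891 ± 68.3 CPM at 1 h. The groups overlap at 10 min, and at 1 h each library lay below the lowest sham library.

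At 6 h, when 28.4% of all genes tested were called, 16.3% higher and 12.2% lower, 4 members were: Mrpl47 and Mrpl49 fell, and Mrpl17 and Mrpl52 rose. All 4 encode large-subunit proteins, Mrpl47 and Mrpl17 of bacterial descent and Mrpl49 and Mrpl52 found in mitochondria only. Mrpl47, known to sit near the exit of the peptide tunnel, stood at 26.3, 26.3 and 27.5 CPM in the 3 sham libraries and at 15.6, 19.3 and 18.2 CPM at 6 h. The groups do not overlap, and the log2 fold change was −0.59 (SE 0.12, adjusted p = 0.00179). At 24 h it stood at 22.0, 23.2 and 16.0 CPM, so that 2 of these 3 libraries were above all 6 h libraries, but the difference of 24 h from 6 h was not called (log2 fold change 0.21, adjusted p = 0.229). About 24.2% of its exon bases overlap Ndufb5 and Actl6a on the other strand, and it is not known whether counting used strand. Mrpl49 was at 53.2, 50.5 and 44.1 CPM in sham and at 26.0, 38.4 and 30.5 CPM at 6 h. Every 6 h library was below every sham library (log2 fold change −0.64, SE 0.14, adjusted p = 0.00282). Replicate 1 was the lowest 6 h library for both Mrpl47 and Mrpl49. The summed level of the members at 6 h was 4871 ± 408 CPM.

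Mrpl52 rose at 6 h and further at 24 h. Its levels were 44.0, 41.2 and 41.6 CPM in sham, 48.8, 54.4 and 55.3 CPM at 6 h, 60.8, 62.8 and 74.5 CPM at 24 h, and 46.7, 49.9 and 52.5 CPM at 72 h. The 3 later groups all lie above sham, and the 24 h libraries lie above those of the other groups. The log2 fold change against sham was 0.32 at 6 h (SE 0.11, adjusted p = 0.0283), 0.64 at 24 h (SE 0.10, adjusted p = 0.000129) and 0.23 at 72 h (SE 0.10, adjusted p = 0.0559). It was also higher at 24 h than at 6 h (0.32, adjusted p = 0.0278), the only member called so with TMM scaling. Mrpl17 went from 51.3 ± 2.30 CPM in sham to 59.8 ± 2.08 CPM at 6 h (0.22 on the log2 scale, SE 0.08, adjusted p = 0.0478) and 62.9 ± 2.03 CPM at 24 h (0.29, SE 0.08, adjusted p = 0.00657). With libraries scaled by their totals 0 members were called higher at 6 h and 11 lower, where 11.7% of all genes were called higher and 17.2% lower. The call of Mrpl17 at 6 h was lost in 13 of 18 fits that left out 1 library and in 6 of the 9 other alternatives, where its adjusted p ran up to 0.379. That of Mrpl52 was lost in 5 of the 18 and 4 of the 9, with an adjusted p of up to 0.167. The count called higher at 6 h was 0 without sham replicate 1, 2 or 3 or 6 h replicate 2 or 3, and 1 without 6 h replicate 1, 1 h replicate 2, 10 min replicate 1 or 2, 24 h replicate 2 or any 72 h replicate. The count called lower became 7 without 6 h replicate 2, 4 without 24 h replicate 1 and 6 without 24 h replicate 3.

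**Figure D1:**
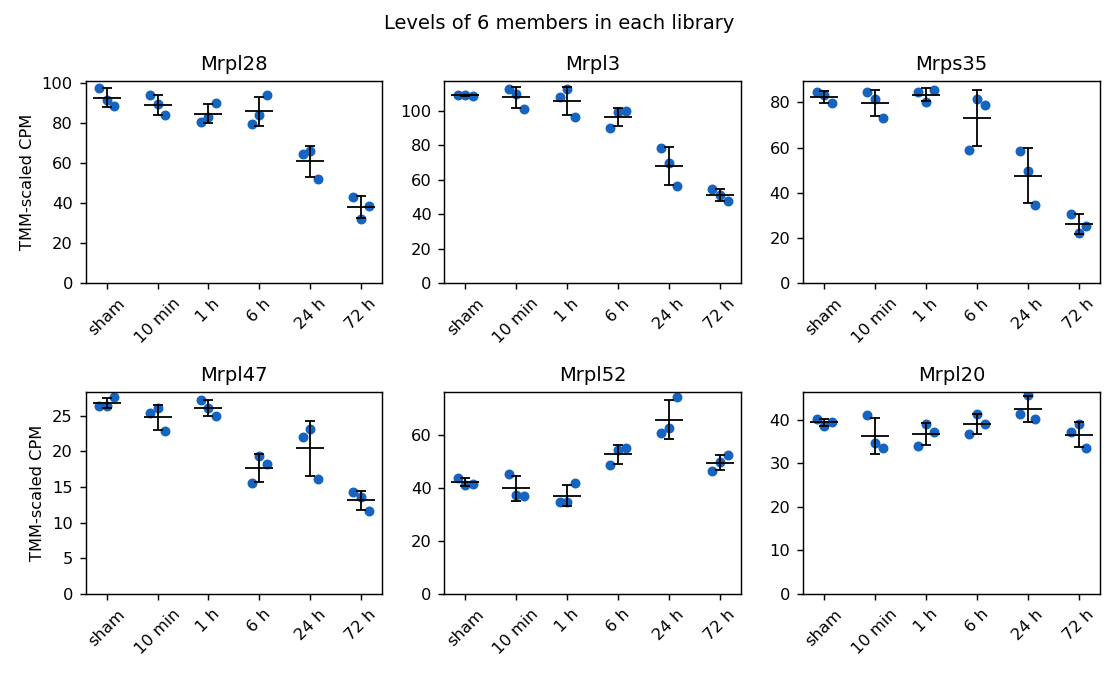
TMM-scaled CPM of 6 members in each of the 18 libraries, by group; points are libraries and bars are the mean ± SD of 3. Mrpl28, Mrpl3 and Mrps35 step down from sham to 24 h and again to 72 h, Mrpl47 is already low at 6 h (15.6 to 19.3 CPM against 26.3 to 27.5 CPM in sham), Mrpl52 peaks at 24 h, and the Mrpl20 libraries of sham and 72 h overlap.

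By 24 h the family as a whole was lower. Of 77 members, 45 were called lower and 3 higher. Of all genes tested 43.8% were called, that is 20.2% of all genes lower and 23.7% higher. The median log2 fold change of the members was −0.34, against 0.01 over all genes, and 70 members were below 0. In 54 members all 3 libraries lay below all 3 sham libraries, an arrangement found in 25.7% of all genes. The summed level was 3976 ± 543 CPM. Without 24 h replicate 3 the count called lower was 25 and the median −0.23. With only the sham and 24 h libraries in the fit the count called lower was 30. Scaling by library totals gave 16 lower and 5 higher, where 11.1% of all genes were called lower and 34.1% higher. The median of the members was then −0.14, while the median over all genes became 0.20.

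The 5 members with the smallest p among those lower at 24 h were Mrpl3, Mrpl18, Mrps9, Mrps21 and Mrpl28, all of bacterial descent. Mrpl3, a core protein that reaches toward the peptidyl transferase centre, was at 109 CPM in each sham library and at 78.2, 69.6 and 56.5 CPM at 24 h. The groups are well apart, with a log2 fold change of −0.68 (SE 0.10, adjusted p = 6.92e-05). Mrpl18 fell from 100.1, 91.4 and 86.8 CPM to 55.9, 59.9 and 35.0 CPM, the most of any member at this time (−0.88, SE 0.15, adjusted p = 0.000199). Replicate 3 is the lowest 24 h library for both genes. About 10.1% of the exon bases of Mrpl18 overlap Tcp1 on the other strand. Among the 60 members that share at most 10% with another gene the lowest log2 fold change at 24 h was −0.79. Mrps21 of the small subunit fell from 126 ± 7.28 to 78.3 ± 15.3 CPM (−0.69), Mrps9 from 80.9 ± 2.49 to 52.1 ± 8.98 CPM (−0.63) and Mrpl28 from 92.7 ± 4.73 to 60.9 ± 7.75 CPM (−0.60), with adjusted p-values of 0.000276 to 0.000359.

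The third member higher at 24 h, beside Mrpl52 and Mrpl17, was Mrps10 of the small subunit. It was at 28.6, 28.8 and 25.5 CPM in sham and at 32.0, 35.5 and 32.6 CPM at 24 h. The groups do not overlap (log2 fold change 0.27, SE 0.10, adjusted p = 0.0285), but the call was lost without 24 h replicate 2 and without sham replicate 3, where the log2 fold change was 0.23 and 0.22, with no filter on low counts (adjusted p = 0.0876) and with only the libraries compared (adjusted p = 0.0584). With TMM scaling all 3 of these members were lower again at 72 h than at 24 h: Mrps10 by a log2 fold change of −0.49, Mrpl17 by −0.45 and Mrpl52 by −0.41 (adjusted p = 0.000345, 0.000126 and 0.00296). With library totals these values shrank to −0.10, −0.06 and −0.02 and none was called (adjusted p = 0.465, 0.608 and 0.908).

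Between 6 and 24 h, 23 members were called lower and 1 higher, against 27.8% of all genes called either way and 13.7% lower, and the median was −0.20; this direction depends on the scaling, since the median was 0.10 with library totals (3 lower, 11 higher) and 0.03 with the totals of genes outside the mitochondrial genome (8 lower, 7 higher). With those 2 scalings 5.08% and 6.66% of all genes were called lower, and 37.1% and 31.7% higher. With only the 6 h and 24 h libraries in the fit 2 members were called lower and 0 higher. Between 24 and 72 h, 65 members were called lower and 0 higher, against 50.5% of all genes called either way and 26.1% lower. All 77 fitted values were below 0 there, from −1.09 to −0.10, with a median of −0.51. With no adjustment, 68 of them had a p under 0.05. With library totals 20 were lower and 1 higher with a median of −0.13, and with totals without mitochondrial genes 47 were lower and 0 higher with a median of −0.32. Of all genes 10.1% and 16.9% were then called lower, and 44.7% and 32.6% higher.

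**Figure D2:**
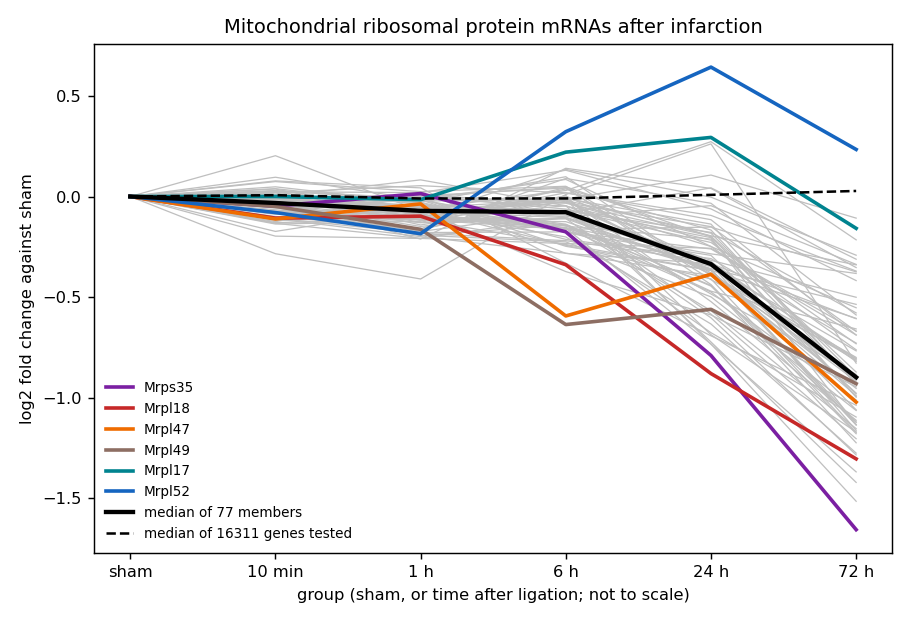
Log2 fold change against sham (edgeR, TMM scaling) at each time; grey lines are the 77 members, coloured lines 6 named members, the solid black line the median of the members and the dashed line the median of the 16311 genes tested. The median of the members stays near 0 to 6 h (−0.08) and reaches −0.34 at 24 h and −0.90 at 72 h, with Mrpl52 on the upper edge and Mrps35 lowest at 72 h.

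At 72 h, 72 of 77 members were lower than in sham and 0 were called higher by edgeR (1 by DESeq2, Mrpl52); 74 had an unadjusted p under 0.05. Of all genes tested 66.4% were called, 32.2% lower and 34.2% higher. The median log2 fold change of the members was −0.90, with a range of −1.66 to 0.23, against a median of 0.03 over all genes. In 75 members all 3 libraries lay below all 3 sham libraries, against 36.5% of all genes. Summed, the members came to 2731 ± 254 CPM at 72 h. Of the 72, 45 were already called at 24 h and 27 were not. In 37 members the libraries of sham, 24 h and 72 h form 3 steps with no overlap. How many of all genes form such steps was not counted, so whether 37 is unusual is not known. In a test over all 5 times together 72 members were called, against 78.4% of all genes tested; the 5 others there were Mrpl20, Mrpl40, Mrpl54, Mrps18c and Mrps22.

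The size of this fall depends on what the libraries are scaled to. Scaling by library totals gave 40 members lower and 5 higher with a median of −0.31, and scaling by the totals of genes outside the mitochondrial genome gave 61 lower and 1 higher with a median of −0.58. Those scalings raise the median of all genes to 0.61 and 0.34. The share of all genes called lower becomes 14.6% and 21.5%, and that called higher 58.1% and 46.9%. Relative to that median the members stood at −0.93 with TMM, −0.92 with library totals and −0.93 without mitochondrial genes. This likeness follows from the method, since a scaling moves all genes of a library nearly alike. It is therefore no separate support for the fall. Leaving out each library in turn left 69 to 73 members lower.

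Among the members with the smallest p at 72 h were Mrpl16, Mrpl28, Mrps9, Mrpl38 and Mrpl3, 4 of them proteins of bacterial descent and Mrpl38 one found in mitochondria only. Mrpl16 (chr19:11770391-11774960, plus strand) stood at 72.2, 68.5 and 70.7 CPM in sham and at 35.2, 28.2 and 29.8 CPM at 72 h. Every library at 72 h is under every sham library, with a log2 fold change of −1.18 (SE 0.10, adjusted p = 1.39e-08). Mrpl28 (chr17:26123500-26126613, plus strand) fell from 97.8, 91.8 and 88.4 CPM to 43.2, 32.1 and 38.8 CPM (−1.29, SE 0.11, adjusted p = 1.52e-08). Mrps9 (chr1:42851233-42905683, plus strand), of the small subunit, fell from 80.9 ± 2.49 to 33.4 ± 4.05 CPM (−1.28, adjusted p = 2.04e-08). None of these 3 genes shares exon bases with another gene. Mrpl38 fell from 71.2 ± 2.52 to 32.4 ± 4.03 CPM (−1.14).

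The lowest log2 fold changes belonged to Mrps35, Mrpl55 and Mrps36. Mrps35 (chr6:147042764-147073991, plus strand), a small-subunit protein found in mitochondria only, was at 84.5, 83.4 and 79.6 CPM in sham, at 58.7, 49.8 and 34.4 CPM at 24 h and at 30.7, 22.3 and 25.5 CPM at 72 h. The 3 groups do not overlap, and at 72 h the log2 fold change was −1.66 (SE 0.16, adjusted p = 6.51e-08), a level of 0.317 times sham. Mrpl55, of the large subunit, went from 92.7 ± 3.97 to 32.4 ± 4.29 CPM (−1.52, adjusted p = 5.47e-08). Mrps36, the member that is no ribosomal protein, went from 75.1 ± 3.37 to 28.0 ± 5.78 CPM (−1.42, adjusted p = 1.11e-07). The member with the most counts, Mrpl42, named after its values were seen, fell from 329, 345 and 317 CPM to 157, 121 and 105 CPM (−1.37). Mrpl18, the lowest member at 24 h, fell from 92.8 ± 6.74 CPM in sham to 37.5 ± 2.58 CPM at 72 h (−1.31). Levels below 0.5 times sham were also found for Mrpl51, Mrpl4, Mrps21, Mrpl2, Mrpl14, Mrps30, Mrps27, Mrps31, Mrps23, Mrpl30, Mrpl46, Mrpl1, Mrpl39, Mrpl47 and Mrpl41, whose log2 fold changes ran from −1.23 to −1.01 and which, apart from Mrps21 and Mrpl47, were listed after their values were seen. All of them were called lower. The smallest falls that were called belonged to Mrpl54 (−0.29), Mrpl24 and Mrpl40 (both −0.34) and Mrpl33 (−0.35), also listed after their values were seen.

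At the other end, 5 members were not called at 72 h. Mrpl20, a large-subunit protein of bacterial descent, stood at 40.2, 38.7 and 39.4 CPM in sham and at 37.1, 39.2 and 33.5 CPM at 72 h. These groups overlap (log2 fold change −0.11, SE 0.09, adjusted p = 0.323). The other four are Mrpl52 (0.23, adjusted p = 0.0559), Mrps10 (−0.22, adjusted p = 0.0567), Mrpl17 (−0.16, adjusted p = 0.0898) and Mrps22 (−0.31, adjusted p = 0.0945), none of which shares exon bases with another gene. In each of the 4 the 3 libraries at 72 h all lie on one side of the sham libraries, so an uncalled p does not show that the level was the same. The sign of some rests on the scaling: with library totals Mrpl17 came to 0.43, Mrpl20 to 0.48, Mrps22 to 0.27 and Mrpl52 to 0.82. Mrpl52 was called higher at 72 h without 72 h replicate 1, 24 h replicate 1, 24 h replicate 3 or 10 min replicate 1.

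**Figure D3:**
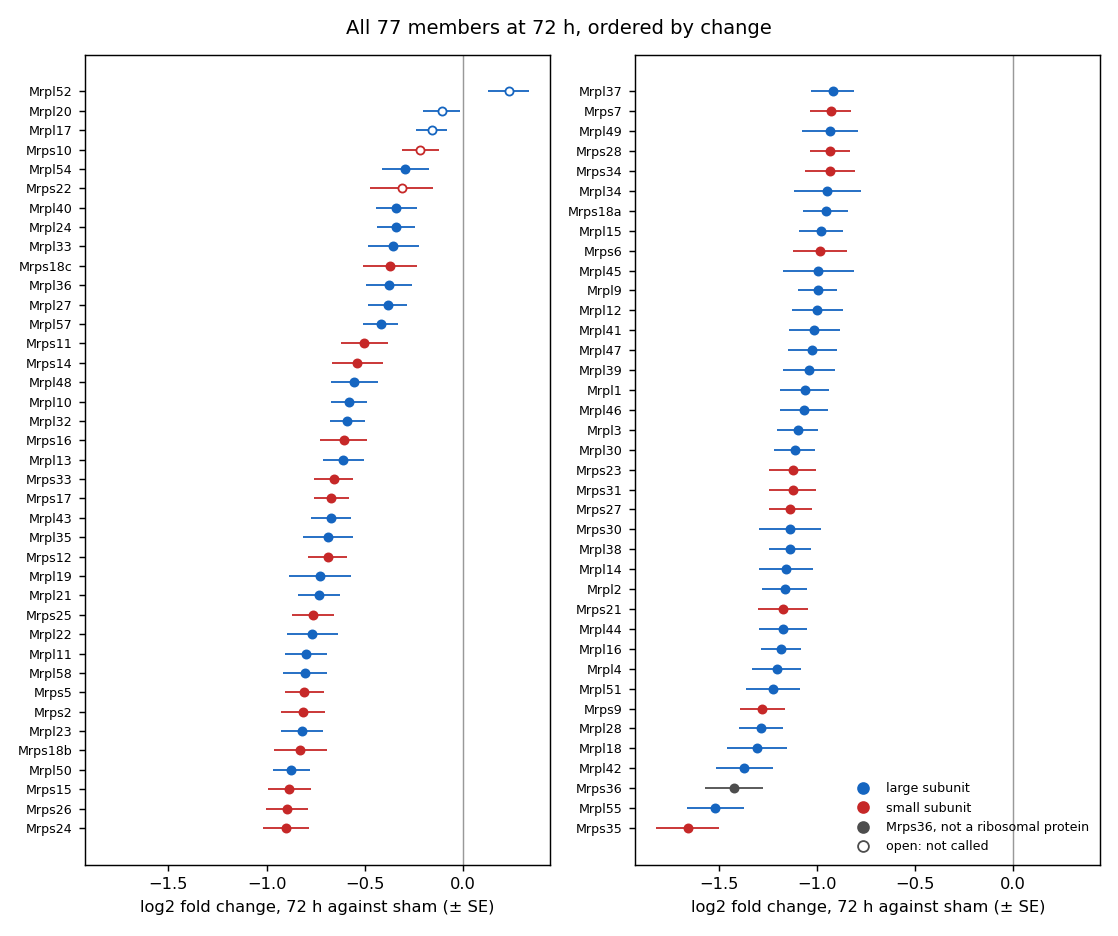
Log2 fold change of each of the 77 members at 72 h against sham with its SE, in order of size; filled points were called (edgeR adjusted p under 0.05), open points were not, and colour gives the subunit. Values run from 0.23 for Mrpl52 to −1.66 for Mrps35, and members of both subunits are spread along the whole order.

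Both subunits and both lines of descent were lower. In the large subunit 47 of 50 members were called lower at 72 h, where 32.2% of all genes tested were, with a median log2 fold change of −0.94, and in the small subunit 24 of 26 with a median of −0.86. Of 46 proteins with a bacterial counterpart 43 were lower (median −0.82), and of 30 found in mitochondria only 28 were lower (median −0.93). The 30 include Mrps18a and Mrps18b, although both are relatives of bacterial S18. At 24 h the medians were −0.34 and −0.33 for the large and small subunit. These differences in median are small beside the range within each class, which spans −1.52 to 0.23 in the large subunit and −1.66 to −0.22 in the small. Among the 60 members that share at most 10% of their exon bases with another gene, 55 were lower, with a median of −0.89.

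Of the members named for known roles, 5 with links to heart disease or with tasks beyond the core ribosome are taken first. Mrpl44 (chr1:79776018-79781445, plus strand), whose human form is mutated in infantile cardiomyopathy, was at 53.2, 47.5 and 48.5 CPM in sham and at 23.1, 21.8 and 21.3 CPM at 72 h. The groups are far apart (log2 fold change −1.17, SE 0.12, adjusted p = 1.36e-07). Mrpl3, also a cardiomyopathy gene, fell from 109 ± 0.233 to 50.9 ± 3.44 CPM (−1.10). Mrpl12, which is known to bind the mitochondrial RNA polymerase, was at 107, 108 and 113 CPM in sham, at 99.5, 107 and 75.3 CPM at 24 h, where it was not called, and at 64.4, 49.0 and 51.0 CPM at 72 h (0.501 times sham, adjusted p = 2.11e-06). Between 24 and 72 h the log2 fold change of Mrpl12 was −0.78. Mrpl58, a peptide release factor built into the large subunit, fell from 60.8 ± 2.71 to 34.8 ± 3.10 CPM (−0.81). Mrps5, studied for its part in lifespan, fell from 43.1 ± 2.08 to 24.6 ± 1.80 CPM (−0.81). With library totals Mrpl58 and Mrps5 were not called: Mrpl58 came to −0.22 (adjusted p = 0.0916) and Mrps5 to −0.22 (adjusted p = 0.0781).

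Defects of Mrps16, Mrps22 and Mrps34 are known causes of combined respiratory chain deficiency in children. Mrps16 fell from 60.8, 58.0 and 60.5 CPM to 42.0, 36.7 and 39.2 CPM (log2 fold change −0.61, adjusted p = 0.00021). Mrps22 was at 15.9, 17.6 and 19.2 CPM in sham and at 14.7, 14.6 and 13.1 CPM at 72 h, which was not called. In 1 of the 9 alternatives that left out no library Mrps22 was called lower, and in 3 its sign reversed. Mrps34 fell from 79.3 ± 1.87 to 41.5 ± 5.75 CPM (−0.93), but its exons overlap Nme3 on the same strand and Mapk8ip3 on the other, so that its counts are uncertain. With library totals Mrps16 came to −0.02 and was not called.

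The 3 relatives of bacterial S18 occupy different places in the particle and differed in level before ligation. Only Mrps18c is classed here as having a bacterial counterpart. Mrps18a and Mrps18b are classed with the proteins found in mitochondria only. Mrps18a, a large-subunit protein despite its name, fell from 58.6, 58.3 and 52.3 CPM in sham to 33.6, 25.4 and 28.4 CPM at 72 h (log2 fold change −0.95, adjusted p = 7.88e-07). Mrps18b was at 12.8, 8.66 and 9.95 CPM in sham, at 13.1, 12.4 and 12.2 CPM at 24 h and at 6.66, 5.66 and 5.38 CPM at 72 h. Its sham and 24 h libraries overlap and the 72 h libraries are below both, with a log2 fold change of −0.83 against sham (adjusted p = 2.78e-05) and −1.09 against 24 h (adjusted p = 2.55e-06). With library totals the difference from sham was −0.24 and was not called (adjusted p = 0.128), while that from 24 h was −0.70 (adjusted p = 0.000319). Mrps18c fell from 22.3 ± 2.65 to 17.2 ± 1.32 CPM (−0.37, adjusted p = 0.0238), a call lost without sham replicate 1 or without 72 h replicate 2 or 3, and its value was 0.22 with library totals. Mrps18b and Mrps18c share 30.5% and 23.2% of their exon bases with predicted genes.

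The other parts of the mitochondrial translation system were lower at 72 h too, where 32.2% of all genes tested were called lower. All 5 ribosomal proteins without an Mrp symbol were called lower (median log2 fold change −0.89), among them Dap3 (94.4 ± 1.89 to 46.6 ± 4.01 CPM, −1.02) and Ptcd3 (98.5 ± 3.08 to 39.5 ± 2.51 CPM, −1.32). Of 17 translation factors measured 16 were lower (median −0.98), led by Lrpprc, which stabilises mitochondrial mRNAs (176 ± 6.92 to 54.4 ± 2.93 CPM, −1.70), and by Tufm, the elongation factor (231 ± 6.14 to 76.2 ± 10.7 CPM, −1.60). Of 20 synthetases and related enzymes that charge mitochondrial tRNAs 19 were lower (median −0.85), with Gatb at −1.50 and Fars2 at −1.40. Of 24 assembly factors and rRNA-modifying enzymes 23 were lower (median −0.84), with Mrm3 at −1.44 and Mtg2 at −1.29. Of 11 genes of mitochondrial DNA transcription and upkeep 8 were lower (median −0.72), with Twnk at −1.24 and Tfb2m at −1.06. No gene of these 5 lists was called higher with TMM scaling. With library totals the lower counts in the same order were 3, 9, 10, 8 and 4, where 14.6% of all genes were called lower.

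For the RNAs that this ribosome contains and reads the log2 fold changes were lower still. All 13 mitochondrially encoded mRNAs were lower at 72 h with a median log2 fold change of −2.19, as were both mitochondrial rRNAs (mt-Rnr1 −2.34, mt-Rnr2 −2.50), although selection for poly(A) captures these RNAs unevenly. The mRNA for mt-Nd6 went from 6933 ± 772 to 1519.6 ± 167 CPM, and that for mt-Atp6 from 2456 ± 182 to 341 ± 58.0 CPM. At 24 h 4 of the 13 mRNAs and 0 of the 2 rRNAs (also 0 at an unadjusted p under 0.05) were called lower (medians −0.42 and −0.09), and mt-Rnr1 and mt-Rnr2 stood at −0.18 and −0.01. Of all genes tested 20.2% were called lower at 24 h and 32.2% at 72 h.

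Nuclear genes for the respiratory chain and ATP synthase (oxidative phosphorylation, OXPHOS) also had a lower median than the members. Of 86 such genes tested, 85 were lower at 72 h with a median log2 fold change of −1.58, and 78 at 24 h with a median of −0.59, against 32.2% and 20.2% of all genes tested. At 6 h 0 were called, with 1 at an unadjusted p under 0.05. Ndufa10 went from 545 ± 26.6 to 139.9 ± 21.3 CPM (−1.96) and Ndufv1 from 871 ± 26.8 to 240.1 ± 39.8 CPM (−1.86). A ratio within a library does not depend on the scaling between libraries. Per 100 counts of OXPHOS genes the members had 8.16, 7.86 and 8.26 counts in sham, 7.22, 7.94 and 7.25 at 6 h, 8.56, 9.99 and 9.56 at 24 h, and 12.3, 14.2 and 13.9 at 72 h. The 24 h and 72 h libraries are each above all earlier ones, so the counts of the members and of the OXPHOS genes changed unequally. No test was run on this ratio.

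Cytosolic ribosomal proteins, which build the ribosomes outside mitochondria, went the other way. Of 86 tested, 37 were higher at 6 h, 65 at 24 h and 68 at 72 h, against 16.3%, 23.7% and 34.2% of all genes tested; at 72 h 3 were lower and the median log2 fold change was 0.58. Rpl3, the cytosolic relative of Mrpl3, rose from 215 ± 8.10 to 569.5 ± 28.0 CPM (1.41, adjusted p = 9.32e-10) while Mrpl3 fell. Rpl10, the cytosolic relative of Mrpl16, rose from 221 ± 8.03 to 479.9 ± 34.9 CPM (1.12, adjusted p = 4.10e-09). Per 100 counts of cytosolic ribosomal proteins the members had 25.1, 23.2 and 25.2 counts in sham, 17.4, 19.8 and 20.4 at 6 h, 16.9, 14.6 and 12.5 at 24 h, and 9.96, 9.11 and 8.05 at 72 h. The libraries of these 4 groups do not overlap, and each later group lies under the one before.

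**Figure D4:**
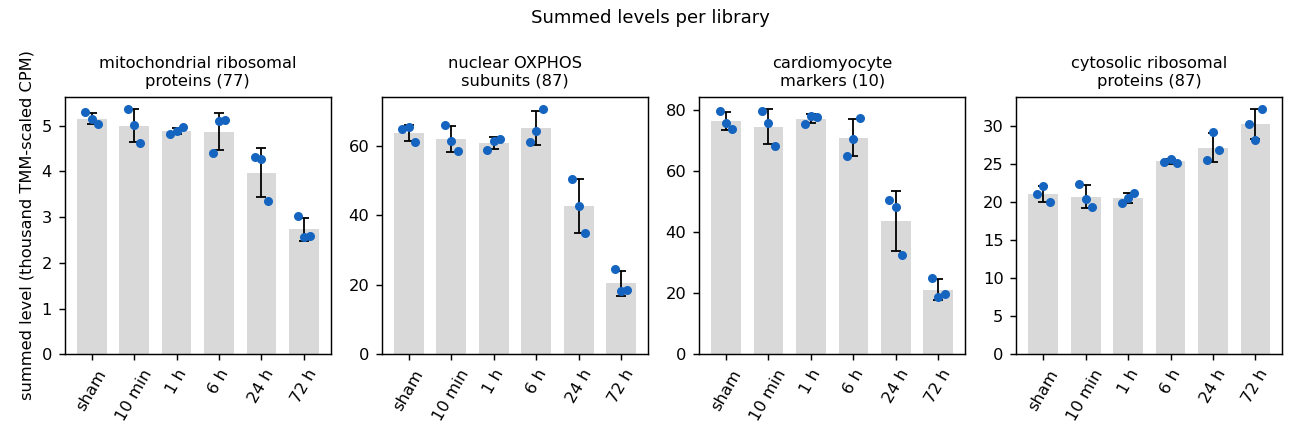
Summed TMM-scaled CPM per library (points), with the mean (bar) and SD of 3 libraries, for the 77 members, 87 nuclear OXPHOS genes, 10 cardiomyocyte markers and 87 cytosolic ribosomal protein genes; each panel has its own axis from 0. The members go from 5155 CPM in sham to 2731 CPM at 72 h, less steeply than the OXPHOS genes and the cardiomyocyte markers, while cytosolic ribosomal proteins go up.

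Markers of cell types moved over the same hours. The 10 cardiomyocyte markers summed to 73621 to 79607 CPM in sham, 32334 to 50402 CPM at 24 h and 18838 to 24991 CPM at 72 h, when all 10 were called lower with log2 fold changes of −2.32 to −1.19. The 8 fibroblast markers rose from 805 to 915 CPM in sham to 12453 to 16067 CPM at 72 h (8 of 8 called higher), the 8 macrophage markers from 173 to 200 CPM to 2051 to 2530 CPM (8 of 8), and the 5 markers of dividing cells from 1.87 to 3.44 CPM to 194 to 279 CPM (5 of 5). The 7 neutrophil markers were at 4.62 to 6.64 CPM in sham, 271 to 932 CPM at 6 h, 101 to 903 CPM at 24 h and 58.5 to 66.8 CPM at 72 h. Endothelial markers went from 1456 to 1536 CPM to 768 to 1011 CPM. No gene of these lists was at 0 in every library. The part of these shifts in the fall of the members was not tested.

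At 72 h, genes that start beside a member were called lower about as often as all genes tested, and higher somewhat less often. The 28 tested neighbours that are no members themselves were called lower in 9 cases, higher in 7 and neither in 12 at 72 h, with a median log2 fold change of −0.04. Among all genes tested 32.2% were lower and 34.2% higher, and all 28 members beside these neighbours were called lower. The neighbours below were named after their values were seen, with distances between GENCODE starts. Mrpl27 (−0.38) starts 197 bases from Eme1, a DNA repair nuclease subunit, which rose by a log2 fold change of 5.17 (SE 0.48, adjusted p = 3.27e-08). Mrpl57 (−0.42) starts 49 bases from Ska3, a kinetochore gene, which rose by 3.99 (SE 0.45, adjusted p = 3.21e-07). Mrpl51 (−1.23) starts 100 bases from Ncapd2, a condensin gene, which rose by 1.04 (adjusted p = 0.000118). Eme1, Ska3 and Ncapd2 are genes of dividing cells.

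The other neighbours that rose are not of 1 kind. Mrpl13 (−0.61) starts 340 bases from Mtbp, which rose by 1.22 (SE 0.27, adjusted p = 0.000714). Mrpl49 (−0.93) starts 59 bases from Fau, which encodes a cytosolic ribosomal protein fused to a ubiquitin-like one and which rose by 0.79 (SE 0.10, adjusted p = 1.62e-06). Mrpl44 (−1.17) starts 125 bases from Wdfy1, which rose by 0.63 (adjusted p = 9.63e-06), and Mrpl30 (−1.11) starts 66 bases from Mitd1, a gene of the last step of cell division, which rose by 1.27 (adjusted p = 1.16e-06). Of the 9 neighbours called lower, several are mitochondrial. Mrpl36 (−0.37) fell with Ndufs6 of complex I (−1.84) at 29 bases, Mrpl47 (−1.02) with Ndufb5 (−1.54) at 615 bases, Mrps12 (−0.69) with the seryl-tRNA synthetase gene Sars2 (−0.52) at 172 bases, Mrpl43 (−0.67) with the DNA helicase gene Twnk (−1.24) at 779 bases and Mrps27 (−1.13) with Ptcd2 (−1.01) at 81 bases. The other neighbours called lower were Tmem63b beside Mrpl14 (−1.32), Cyb5rl beside Mrpl37 (−1.32), Apba3 beside Mrpl54 (−1.02) and Eme2 beside Mrps34 (−0.77). The members Mrpl46 and Mrps11 start 412 bases from each other and had log2 fold changes of −1.06 and −0.50. On the other strand Mrpl43 shares 33.4% of its exon bases with Twnk and Mrpl47 24.2% with Ndufb5 and Actl6a. Mrpl46 shares 12.2% with Mrps11 and Mrpl14 11.2% with Tmem63b. Whether counting used strand is not known, so the counts of these pairs are uncertain.

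**Figure D5:**
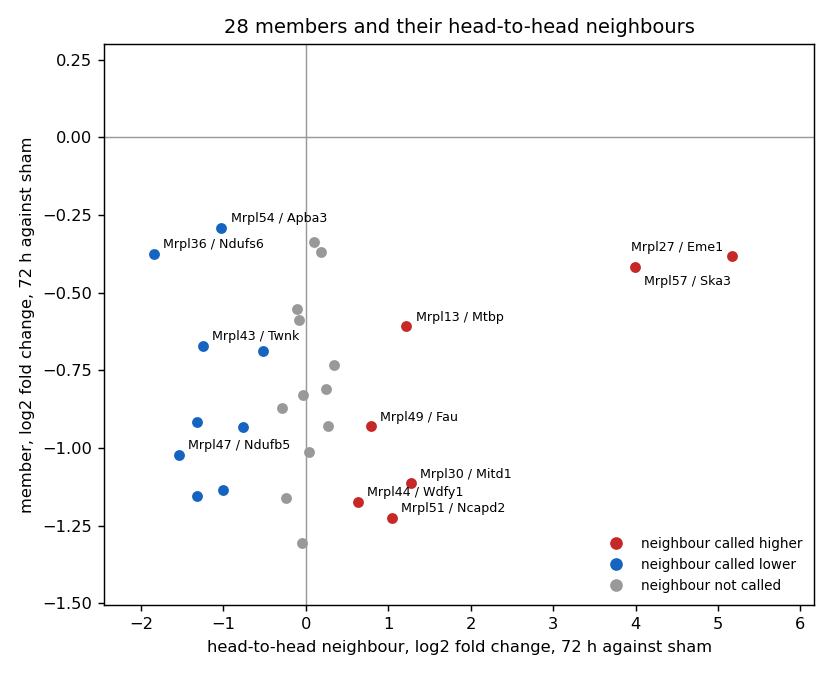
Log2 fold change at 72 h against sham of 28 members (vertical axis) and of the protein-coding gene that starts head to head within 1000 bases (horizontal axis); colour gives the call of the neighbour. All 28 members lie below 0, between −0.29 and −1.31, while the neighbours run from −1.84 (Ndufs6) to 5.17 (Eme1).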

How the data were processed

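RNA of 18 mice, 1 library each, was sequenced after poly(A) selection, random-primed copying and PCR, per the labels' protocols; no molecular identifiers are described. Per the submitters' processing notes, cutadapt 1.18, HISAT2 2.1.0 and featureCounts were used with build mm10; use of strand is not given in the sources used here. The deposited counts are whole numbers per Ensembl gene. The deposited FPKM are those counts per gene length and library total: a whole-number length (within 0.5 base) resulted for 100% of the 10452 genes counted 50 times or more in each library, and it equalled the exon bases of GENCODE M21 for 70 of the 77 members. Symbols and coordinates are from that annotation (GRCm38); 30489 gene IDs matched and 94 did not. No column was left unmapped (0).

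Counts were fitted in R 4.3.3 with edgeR 4.0.16 (filterByExpr, 14272 genes removed; TMM; robust glmQLFit with 1 mean per group over all 18 libraries; glmQLFTest, two-sided). SE is the log2 fold change divided by the root of F. The biological coefficient of variation was 0.149. Library totals ran from 18.2 to 25.1 M counts. The script was tested on simulated data. Alternatives were RLE scaling, library totals, totals without mitochondrial genes, DESeq2 1.42.0, no filter, at least 10 counts in every library, limma 3.58.1 on log2(FPKM + 1), only the libraries compared, the replicate number as a block, and each library left out. Nothing in the labels pairs the mice by number.

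The members, the 10 lists of related genes and the 10 marker lists were chosen with earlier results of these data known. Named members are, per contrast with sham, the 5 smallest p in each direction, at 72 h the 3 highest and 3 lowest changes, 12 with known roles, and from each list the 2 smallest p at 72 h; others are said to be named after their values were seen. Promoter windows are RefSeq's, on GRCm38.p6. No set of genes was tested as a set, and DNA methylation was not analysed here.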

Additional observations from a re-analysis of the deposited data

How the results depend on the processing

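The scaling sets the size of the changes. With library totals, totals without mitochondrial genes and limma on log2(FPKM + 1), in this order, the median log2 fold change of the members was −0.19, −0.19 and −0.18 at 6 h, −0.14, −0.21 and −0.14 at 24 h, −0.31, −0.58 and −0.31 at 72 h, −0.13, −0.32 and −0.10 from 24 to 72 h, and it reversed to 0.10, 0.0326 and 0.10 from 6 to 24 h. Members called lower were then 11, 14 and 7 at 6 h, 16, 28 and 16 at 24 h, 40, 61 and 39 at 72 h, 3, 8 and 3 from 6 to 24 h, and 20, 47 and 20 from 24 to 72 h. Of all genes tested 17.2%, 19.1% and 15.7% were called lower at 6 h, and 11.1%, 14.6% and 11.3% at 24 h. This share was 14.6%, 21.5% and 14.6% at 72 h. It was 5.08%, 6.66% and 5.03% from 6 to 24 h, and 10.1%, 16.9% and 9.69% from 24 to 72 h. Members called higher were 0, 0 and 0 at 6 h, 5, 4 and 5 at 24 h, 5, 1 and 4 at 72 h, 11, 7 and 9 from 6 to 24 h, and 1, 0 and 1 from 24 to 72 h. Of all genes tested 11.7%, 11.8% and 9.54% were called higher at 6 h, and 34.1%, 30.5% and 32.5% at 24 h. That share was 58.1%, 46.9% and 58.7% at 72 h. It was 37.1%, 31.7% and 34.7% from 6 to 24 h, and 44.7%, 32.6% and 47.3% from 24 to 72 h. At any time 43 members were called with library totals and 42 with limma. At 72 h Mrpl17 reversed to 0.43, 0.16 and 0.38, Mrpl20 to 0.48, 0.21 and 0.46, Mrps22 to 0.27, 0.00298 and 0.23, and Mrps18c to 0.22 with library totals and 0.21 with limma. Relative to the median of all genes the members stood between −0.94 and −0.85 at 72 h in every fit of counts that used all libraries compared. Between scalings this likeness follows from the method, since a scaling moves all genes of a library nearly alike. With limma, where the added 1 shrinks the change of low genes, the members stood at −0.66. The cause of the other shifts was not tested beyond the move of that median.

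The other alternatives moved the counts called as follows. At 24 h only the libraries compared gave 30 lower. At 6 h 0 members were called higher with no filter, and 1 with only the libraries compared, which also gave 5 lower. At 72 h 1 member, Mrpl52, was called higher with at least 10 counts in every library, DESeq2, RLE scaling and only the libraries compared. From 6 to 24 h only the libraries compared gave 0 higher and 2 lower, a fit with fewer samples. Leaving out each library in turn gave 0 to 2 higher and 2 to 7 lower at 6 h, 25 to 46 lower at 24 h, 0 to 1 higher at 72 h and 0 to 2 higher from 6 to 24 h. Mice with the same replicate number did not vary together: of 45 pairs 4 had a correlation over 0.1 (median 0.035). With the replicate block 72 members were lower at 72 h, 45 at 24 h and 64 from 24 to 72 h, and at 6 h 2 were lower and 1 higher, where the fit without it gave 2. Of 39 results for named members 24 kept their direction and call under every alternative run. With limma on log2(FPKM + 1) the 72 h calls of Mrpl58, Mrps5 and Mrps18b were lost (−0.21, −0.19 and −0.19; adjusted p = 0.0926, 0.0822 and 0.0982). For 5 members from 24 to 72 h and Mrpl52 from 6 to 24 h, 3 scalings were added after seeing the data. Every member had at least 130 counts in every library, so that depth limited no member's detection.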

Other observations

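Of 11 regulators of mitochondrial biogenesis, 6 were called lower at 72 h and 4 higher by edgeR, against 32.2% and 34.2% of all genes tested, with a median log2 fold change of −0.22; all but Esrra and Esrrb were named after their values were seen. The nuclear receptor genes that drive mitochondrial genes in heart muscle were lower: Esrra went from 267 ± 5.91 CPM in sham (SD, n = 3) to 112 ± 14.5 CPM (log2 fold change −1.25, adjusted p = 1.27e-07) and Esrrb from 33.2 ± 0.342 to 9.13 ± 2.28 CPM (−1.86, adjusted p = 5.15e-07). Their coactivator Ppargc1a fell from 74.4 ± 1.00 to 20.8 ± 2.92 CPM (−1.84). Of the factors whose motifs were searched in the start regions, Nrf1 was higher from 6 h on (0.37, 0.35 and 0.30 at 6, 24 and 72 h, adjusted p = 0.0117, 0.00955 and 0.0128), while Yy1 was not called at any of these times (0.16, 0.00 and −0.06). Of the 2 subunits of the ETS factor GABP, Gabpb1 was higher at 72 h (0.46, adjusted p = 0.00618) and Gabpa lower (−0.22, adjusted p = 0.0307). Myc rose from 2.15 ± 0.246 CPM in sham to 41.4 ± 17.9 CPM at 6 h (4.25, adjusted p = 6.65e-06).

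Of 24 enzymes that assemble the mitochondrial ribosome or modify its rRNA, 9 were called lower at 6 h (median −0.25), where 12.2% of all genes tested were. Of the 77 members 2 were (median −0.08). With library totals 11 members were lower, against 17.2% of all genes. With totals without mitochondrial genes 14 were lower, against 19.1% of all genes. The methyltransferase gene Mrm1, named after its values were seen, fell from 31.2 ± 1.76 to 12.8 ± 2.68 CPM at 6 h (−1.28, adjusted p = 1.00e-05) and stood at 25.8 ± 2.88 CPM at 24 h. Counts with those 2 scalings are not given here for the 24 enzymes, so the lists can be set side by side with TMM only. The difference between the lists was not tested.

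At 6 h the deposited FPKM of replicates 2 and 3 appear exchanged: own counts gave a whole-number length for 0.0957% of 10452 genes, and exchanged counts for 100%. Both are in 1 group, so group means are the same either way.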
